A study of Mus musculus with 2 samples.

Results

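The 8 genes described here make, carry or respond to retinoids, the family of molecules made from vitamin A: Rbp4, Stra6, Aldh1a1, Aldh1a2, Aldh1a3, Crabp2, Rarb and Rarres2. They were taken by symbol from the 32285 genes of a single-cell RNA sequencing study of whole mouse uterus, and all 8 were found. Retinol travels in blood bound to retinol binding protein, enters cells through a membrane receptor or by diffusion, and is oxidised first to retinal and then, irreversibly, to retinoic acid by the retinaldehyde dehydrogenases. Retinoic acid is carried inside the cell by small binding proteins to nuclear receptors that switch on target genes, and enzymes of the Cyp26 family break it down. In the uterus, retinoic acid made by the stroma is known to matter for the cycle and for decidualization, the change of stromal cells that prepares for an embryo.

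The data were 2 droplet libraries that count transcripts at their 3' end, each a pool of the uteri of 3 C57BL/6J females aged 6 months. The library labelled control carried Prickle1 f/f, an allele that can be deleted by a recombinase, and the library labelled cKO carried Prickle1 f/f MiC. What MiC stands for and which exons are flanked is not in the labels, whose genotype entry is wild-type on both. Tissue was digested for 5 hours in collagenase, so RNA levels are those of cells that went through it. With 1 library per group there was no replicate and no test, and every interval below is 95% and covers counting error alone.

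In depth, the library labelled control held 45035801 unique molecular identifiers (UMIs, each standing for 1 captured transcript) and 3490 cells, and the library labelled cKO held 34261441 UMIs and 3586 cells. Median depth was 4953 and 4903 UMIs per cell, and 6 cell barcodes occurred in both libraries. Prickle1, the targeted gene, had 14 UMIs in smooth muscle-like cells of the library labelled control (14.8 CPM, the count per 1000000 UMIs of the cells named) and 51 in those of the library labelled cKO (24.3 CPM), so its counts were not lower under the label cKO. A 3' count can lie outside the deleted exons, so this does not check the genotype, and the groups are called by their labels throughout. Cells were clustered without the 8 genes or 48 further retinoid genes among the variable genes, and clusters were named from marker genes. The 2 libraries differed in makeup: the library labelled control gave 1313 epithelium-like and 865 fibroblast-like cells, and the library labelled cKO gave 110 and 1366.

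The genes were divided between cell classes. Aldh1a2 and Rarres2 were found mostly in fibroblast-like and mesothelium-like cells, Aldh1a2 also in dendritic cell-like cells, and Aldh1a3 in epithelium-like cells and 1 fibroblast-like cluster. Epithelium-like cells held 86.5% of the Crabp2 UMIs under the label control and 42.2% under the label cKO, where fibroblast-like cells held 33.1%. Of the UMIs of all genes, epithelium-like cells held 50.5% and 4.60%, and fibroblast-like cells held 56.6% under the label cKO. In fibroblast-like cells, the Aldh1a2 level was 43.2 CPM under the label control and 265 CPM under the label cKO, and the Rarres2 level was 267 and 130 CPM. In epithelium-like cells, the levels of Aldh1a1, Aldh1a3, Crabp2 and Stra6 were all more than 2-fold higher under the label cKO, but a few cells held most of those UMIs. Rarb was almost unread in either library, with 8 and 12 UMIs in all cells.

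**Figure D1:**
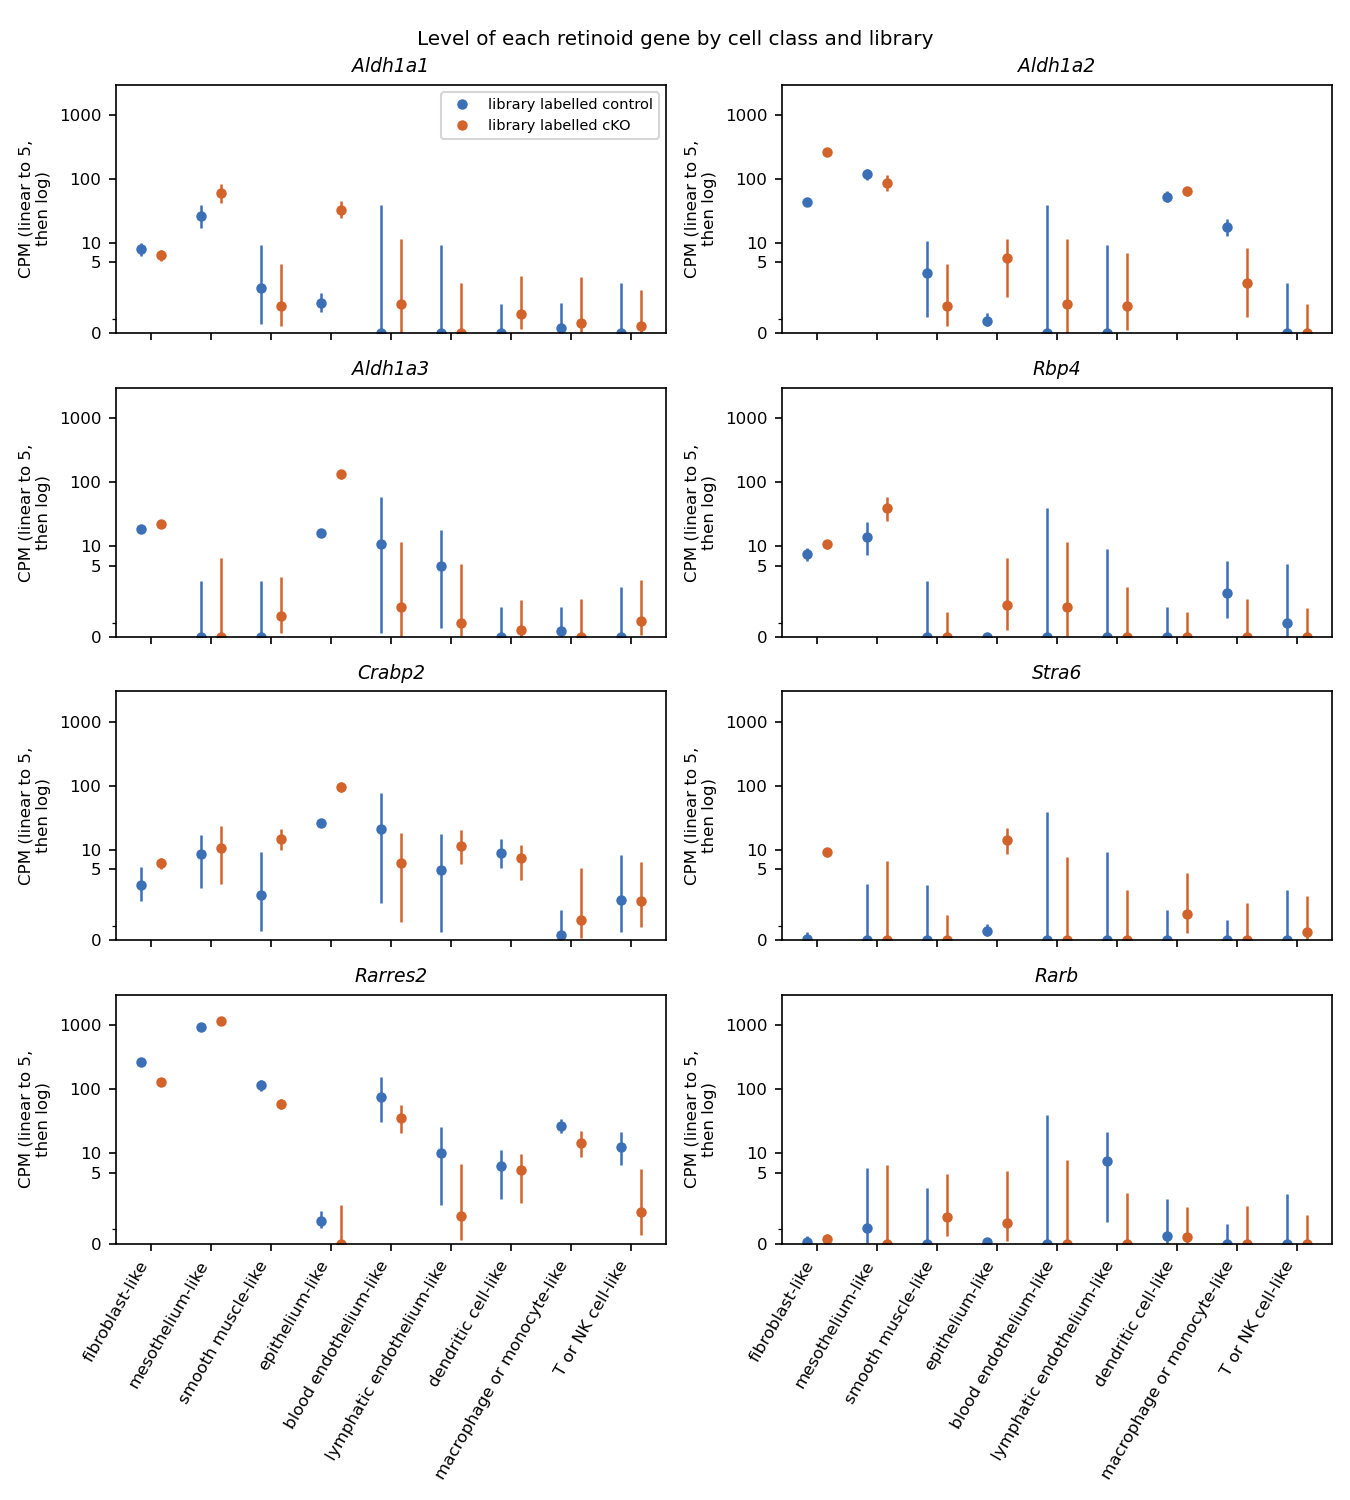
Level of each of the 8 genes in CPM (y axis, linear to 5 and logarithmic above) in 9 cell classes (x axis), for the library labelled control (blue) and the library labelled cKO (orange). Points are summed levels and bars are 95% Poisson intervals of counting error. Aldh1a2 in fibroblast-like cells stands at 43.2 and 265 CPM, and Rarres2 is highest in mesothelium-like cells at 941 and 1181 CPM.

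Levels below are UMIs summed over a class in 1 library and scaled to 1000000 UMIs of that class (CPM). Ratios are log2 of cKO-labelled over control-labelled after 5 CPM was added to each, so they understate differences of low genes, and their counting intervals are those of the ratio without that addition. A gene was compared in a class where it reached 10 CPM in at least 1 library, and was counted as higher or lower past 2-fold. Where it reached 10 CPM in only 1 library, in a class or in a cluster, that filter alone fixed its direction, so the direction is no separate result. Of the 8 genes, 4 could be compared in fibroblast-like cells, where 1 was higher (Aldh1a2) and 1 was lower (Rarres2), beside 1.61% of all 8153 genes compared that were higher and 0.859% that were lower. Their median log2 ratio was 0.26, beside 0.10 over all genes. In epithelium-like cells 4 could be compared and all 4 were higher, beside 13.6% of all 8681 genes higher and 7.23% lower, with median log2 ratios of 2.10 and 0.26. Of the 4, Aldh1a1 and Stra6 reached 10 CPM only under the label cKO, while Aldh1a3 and Crabp2 reached it in both libraries. In smooth muscle-like cells 2 could be compared and 1 was higher, beside 3.81% of genes higher and 2% lower. Of the genes that could be compared, 0 of 1 in dendritic cell-like, 1 of 2 in macrophage or monocyte-like and 1 of 1 in T cell- or NK cell-like cells passed 2-fold in either direction, beside 7.6%, 5.29% and 5.96% of all genes. Crabp2 in smooth muscle-like, Aldh1a2 in macrophage or monocyte-like and Rarres2 in T cell- or NK cell-like cells also reached 10 CPM in only 1 library. So did Rbp4 in fibroblast-like cells, and its ratio is part of the median given for them.

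Aldh1a2 (ENSMUSG00000013584, chr9:71215789-71296243, plus strand, mm10) codes for the retinaldehyde dehydrogenase known from stromal and mesothelial cells of many organs. In fibroblast-like cells it had 424 UMIs under the label control and 4408 under the label cKO. The levels were 43.2 CPM (39.2 to 47.5) and 265 CPM (257 to 273), with intervals that did not overlap, and the log2 ratio was 2.49. At least 1 UMI was found in 6.24% of these cells (4.72% to 8.07%) under the label control and in 22.6% (20.4% to 24.9%) under the label cKO. After every cell was thinned to 1000 UMIs, those shares were 2.89% and 11.7%. In T or NK cell-like cells, which are not known to express it, 0 of 213 and 0 of 454 cells had a UMI, with exact upper limits of 1.72% and 0.809% at median depths of 4203 and 3542.5 UMIs, against 9548 and 10171.5 in fibroblast-like cells.

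Most of that Aldh1a2 lay in 1 of 6 fibroblast-like clusters, number 21, whose leading genes were Dio2, the enzyme that activates thyroid hormone, and Aldh1a2 itself, with the matrix gene Tnc and the protease inhibitor gene A2m. Of its cells 14 came from the control-labelled and 221 from the cKO-labelled library, or 94.0% from the second, so cluster 21 may stand for a library more than for a cell type. Within it, Aldh1a2 was at 962 CPM and 882 CPM, and 14 of 14 and 204 of 221 cells had a UMI. These cells carried 56.6% of the class's Aldh1a2 UMIs under the label control and 90.2% under the label cKO. Its share of the class's cells was 1.62% and 16.2%, and with 14 cells under the first label its levels are given side by side, with no comparison. All 6 fibroblast markers named it, among them Pdgfra, Dcn and 3 collagen genes.

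Clusters with at least 20 cells in each library were compared separately. In the 4 of them where Aldh1a2 reached 10 CPM in at least 1 library, it was higher under the label cKO in 4 and past 2-fold in 2. Of those 2, cluster 6 reached 10 CPM only under the label cKO, so the filter fixed its direction. Cluster 13, whose cells were shallow at 0.343 of their libraries' median depth, had 24 and 123 UMIs, or 47.1 and 638 CPM (log2 ratio 3.62). Dio2 in cluster 13 was at 70.7 and 534 CPM and A2m at 3.93 and 244 CPM (2 and 47 UMIs). These are some of the leading genes of cluster 21, chosen after the values were seen, and they were also high in cluster 13 under the label cKO. Cluster 6, led by the matrix genes Ptx3 and Has2, had 2.55 and 15.6 CPM of Aldh1a2 (log2 ratio 1.45). These were 8 UMIs in 2 cells, 7 of them in 1 cell, and 93 UMIs in 22 cells, with 73.1% in 5 cells. Cluster 5, a collagen-rich cluster of 218 and 325 cells, had 31.8 and 36.9 CPM, and cluster 16 had 47.2 and 65.9 CPM, with overlapping intervals of the level in both. Without clusters 13 and 21, a choice made after the data were seen, the log2 ratio over the class was 0.44.

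**Figure D2:**
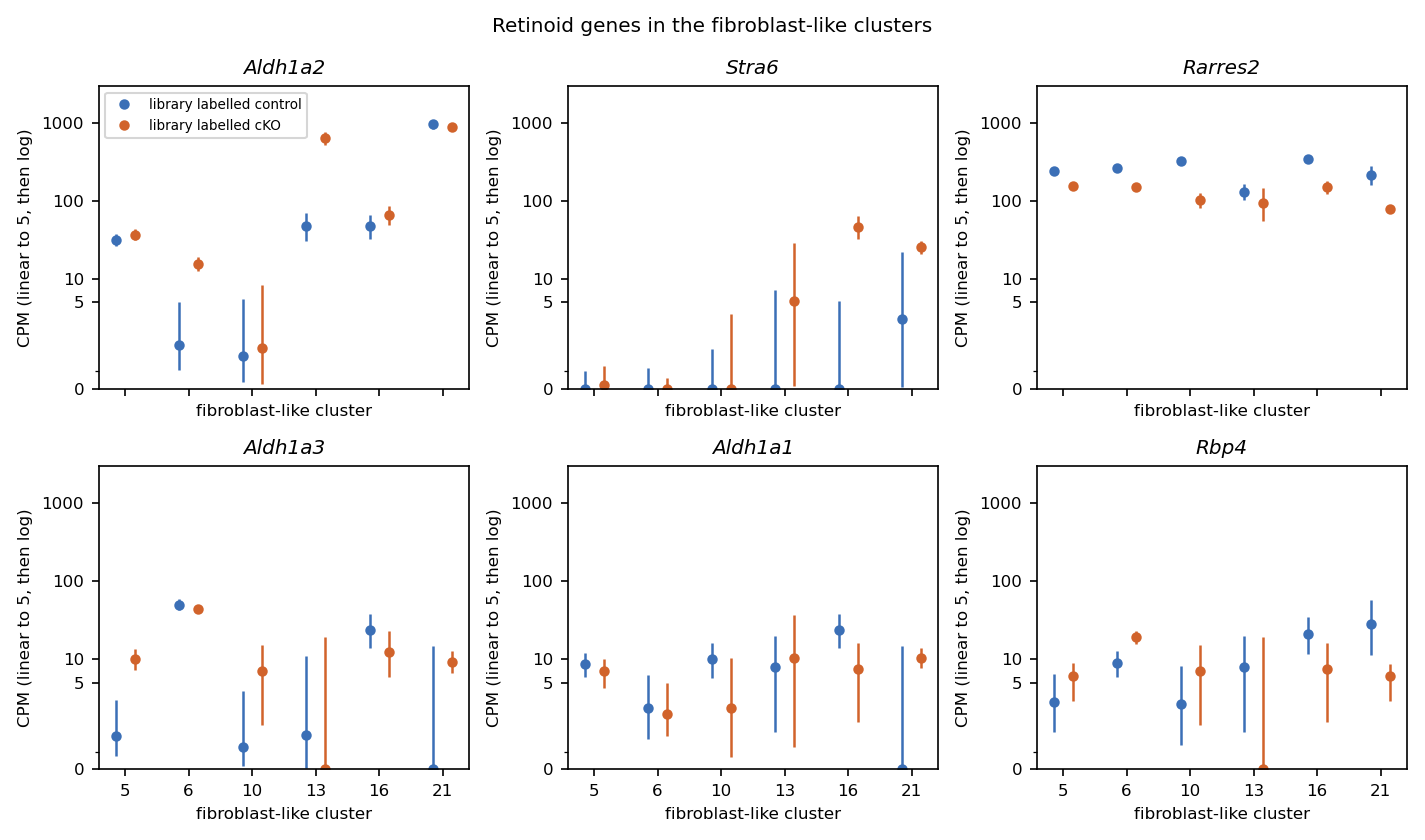
Levels of 6 retinoid genes in CPM (y axis, linear to 5 and logarithmic above) in the 6 fibroblast-like clusters (x axis), for the library labelled control (blue) and the library labelled cKO (orange), with 95% Poisson intervals. Aldh1a2 in cluster 21 stands at 962 and 882 CPM, Stra6 appears in clusters 16 and 21, and Rarres2 is lower under the label cKO in each cluster.

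Outside the fibroblast-like cells, Aldh1a2 was highest in mesothelium-like cells, the lining of the outer uterine wall, with 110 and 49 UMIs (118 and 87.5 CPM). These were 80 and 31 cells, too few for a comparison, and their Poisson intervals overlapped. Dendritic cell-like cells, led by Ccl22 and Ccr7, had 94 and 138 UMIs, or 53.3 CPM (43.1 to 65.2) and 64.0 CPM (53.8 to 75.6). Migratory dendritic cells are a known source of retinoic acid. The log2 ratio there was 0.24 with a counting interval from -0.13 to 0.66, and 18.6% and 17.6% of cells had a UMI. In macrophage or monocyte-like cells the gene had 46 and 5 UMIs (17.5 and 3.57 CPM, log2 ratio -1.40), but 37 of the 46 came from 1 cell. Without the highest cell of each library that log2 ratio was -0.39, inside 2-fold.

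Rarb is the textbook case of a gene switched on by retinoic acid through an element close to its start. Both promoter windows, 250 bases before to 50 after the start, are shown from RefSeq (mm10) because Aldh1a2 differed between libraries in fibroblast-like cells and Rarb was nearly unread. Capitals mark a DR5 match, which is a pair of half-sites in the same orientation, each reading AGGTCA or else AGTTCA, or with G first, GGGTCA or else GGTTCA, with 5 bases between them.
Rarb, chr14:16575427-16575726, minus strand: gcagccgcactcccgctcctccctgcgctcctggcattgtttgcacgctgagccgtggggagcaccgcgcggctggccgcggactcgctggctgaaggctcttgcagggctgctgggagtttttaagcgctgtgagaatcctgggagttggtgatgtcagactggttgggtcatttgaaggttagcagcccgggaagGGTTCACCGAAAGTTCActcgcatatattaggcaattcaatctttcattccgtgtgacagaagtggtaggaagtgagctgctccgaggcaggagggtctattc
Aldh1a2, chr9:71215539-71215838, plus strand: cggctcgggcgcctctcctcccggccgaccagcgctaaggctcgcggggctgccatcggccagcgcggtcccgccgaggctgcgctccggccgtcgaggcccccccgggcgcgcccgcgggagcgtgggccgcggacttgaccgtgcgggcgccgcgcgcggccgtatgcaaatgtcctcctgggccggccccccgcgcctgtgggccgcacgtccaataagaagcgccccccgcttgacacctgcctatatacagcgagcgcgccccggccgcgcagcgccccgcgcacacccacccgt
RefSeq windows were found for 5 of the 8 genes, in 10 windows, and not used for Aldh1a3, Crabp2 and Rarres2. Searched on both strands for DR5 and for DR2, the same pair 2 bases apart, the Rarb window alone held a match. That match was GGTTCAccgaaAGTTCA (capitals mark the half-sites), chr14:16575513-16575529, ending 36 bases before the start. Of all 32851 windows of 300 bases, 0.0974% held a DR5 and 0.268% a DR2. A match describes the letters and is no evidence of binding, and a window without one says nothing about the receptor.

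Rarb (ENSMUSG00000017491, chr14:16430839-16819156, minus strand), the retinoic acid receptor beta, had 8 UMIs in 8 cells under the label control and 12 in 11 cells under the label cKO. In fibroblast-like cells it had 1 and 5 UMIs, and in cluster 21 it had 0 and 1. Smooth muscle-like cells had 0 and 4 UMIs, and lymphatic endothelium-like cells had 3 and 0. These counts are too few to describe a difference between the libraries, and the gene reached 10 CPM in none of the classes compared. It overlaps Top2b and Gm48162 on the opposite strand.

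Rbp4 (ENSMUSG00000024990, chr19:38116629-38125281, minus strand) codes for the carrier of retinol in blood. It was read mostly in fibroblast-like cells, with 74 and 179 UMIs, or 7.54 CPM (5.92 to 9.46) and 10.8 CPM (9.25 to 12.5), and the log2 ratio was 0.33. Those level intervals overlapped slightly, and the direction was not shared by the clusters. In cluster 6 the level was 8.94 and 19.2 CPM, while in cluster 16 it was 20.8 and 7.46 CPM. In the class and in each of these clusters Rbp4 reached 10 CPM in only 1 library, so the filter fixed these directions. Mesothelium-like cells had 13 and 22 UMIs (13.9 and 39.3 CPM), of which 5 cells held 84.6% and 86.4%. Epithelium-like cells had 0 and 3 UMIs.

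Stra6 (ENSMUSG00000032327, chr9:58063788-58153996, plus strand), the membrane receptor that takes up retinol from Rbp4, is also a gene known to respond to retinoic acid. In all cells it had 13 UMIs under the label control and 178 under the label cKO. Fibroblast-like cells had 1 UMI in 865 cells and 154 UMIs in 78 of 1366 cells, a level of 0.102 CPM (0.00258 to 0.567) against 9.27 CPM (7.86 to 10.9). The ratio of these levels was 91.0, with a counting interval from 16.1 to 3617, and the gene stayed just under the 10 CPM needed to be compared in the class. After thinning, 0% and 0.952% of fibroblast-like cells had a Stra6 UMI, and in T or NK cell-like cells 0% and 0.22% had one without thinning. Of the 154 UMIs, 115 lay in cluster 21 (74.7%) and 37 in cluster 16. Cluster 16 was fairly even between libraries at 101 and 135 cells and had 0 UMIs under the label control. The 46.0 CPM under the label cKO was 11.0 times a floor of 3 counts (4.17 CPM). The counting interval of the log2 ratio began at 3.09.

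Stra6 and Aldh1a2 were often found in the same cells under the label cKO. Of the 78 fibroblast-like cells there with a Stra6 UMI, 63 also had an Aldh1a2 UMI (80.8%), while 309 of all 1366 had one (22.6%). Of the 78, 55 lay in cluster 21, where 204 of 221 cells had an Aldh1a2 UMI, and 21 in cluster 16, where 26 of 135 did. Whether the overlap exceeds what cluster membership gives was not tested. Depth is shared by both genes in a cell, and clusters 16 and 21 differ in it, so the overlap is given as a description. In cluster 16, A2m was at 16.7 and 251 CPM, Scube1 at 29.2 and 123 CPM and Dio2 at 29.2 and 430 CPM. These are some of the leading genes of cluster 21, chosen after the values were seen, and they were high there under the label cKO. Stra6 overlaps Gm16131 on its own strand, so reads in the shared stretch cannot be assigned with certainty.

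Aldh1a3 (ENSMUSG00000015134, chr7:66390890-66427517, minus strand), another retinaldehyde dehydrogenase, had 184 and 366 UMIs in fibroblast-like cells. The levels were 18.7 CPM (16.1 to 21.7) and 22.0 CPM (19.8 to 24.4), overlapping, and the log2 ratio was 0.19 with a counting interval from -0.03 to 0.50. Cluster 6 held 85.3% and 72.4% of these UMIs, at 50.1 and 44.6 CPM. Most Aldh1a3 UMIs thus lay in another fibroblast-like cluster than most Aldh1a2 UMIs. Cluster 16 held both genes, with Aldh1a3 at 23.6 and 12.4 CPM and Aldh1a2 at 47.2 and 65.9 CPM. Of the 108 Aldh1a3-positive cells under the label cKO, 16 had an Aldh1a2 UMI. The same label had one in 309 of all 1366 fibroblast-like cells and in 22 of the 460 cells of cluster 6. Whether the 2 genes avoid each other was not tested. In cluster 21 under the label cKO, 41 of 42 Aldh1a3 UMIs came from 1 cell.

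In epithelium-like cells Aldh1a3 had 311 UMIs under the label control and 180 under the label cKO. Because the first class held 18938527 UMIs and the second 1349149, the levels were 16.4 CPM (14.6 to 18.4) and 133 CPM (115 to 154), and the log2 ratio was 2.69. At least 1 UMI was found in 72 of 1313 cells (5.48%, 4.31% to 6.86%) and in 23 of 110 cells (20.9%, 13.7% to 29.7%), shares that did not overlap, and thinned to 1000 UMIs they were 1.29% and 10.0%. T or NK cell-like cells had shares of 0% and 0.441%. The UMIs were uneven, since 5 cells held 81.7% of those under the label cKO and the highest held 66. Both clusters with cells of both libraries had the higher level under the label cKO. Cluster 0 had 27.2 and 162 CPM, but 5 of its 44 cells under the label cKO held 90.2% of the 163 UMIs there. Cluster 2 had 3 and 17 UMIs, a ratio of 43.3 with a counting interval from 12.5 to 231. In cluster 2 Aldh1a3 reached 10 CPM only under the label cKO, so the filter fixed its direction.

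Aldh1a1 (ENSMUSG00000053279, chr19:20492715-20643465, plus strand), a further retinaldehyde dehydrogenase, had 40 and 45 UMIs in epithelium-like cells. The levels were 2.11 CPM (1.51 to 2.88) and 33.4 CPM (24.3 to 44.6), the log2 ratio was 2.43, and the gene was found in 2.28% and 15.5% of cells (0.228% and 3.64% after thinning). It was past 2-fold higher in cluster 0 (2.56 and 29.9 CPM) and in cluster 2 (3.40 and 43.4 CPM). In each of these clusters, as in the class, it reached 10 CPM only under the label cKO, so the filter fixed the direction. Under that label, 5 of the 44 cells of cluster 0 held 90% of its 30 UMIs. In mesothelium-like cells Aldh1a1 had 25 and 34 UMIs (26.8 and 60.7 CPM), but 79.4% of the second count came from 5 of the 31 cells. Fibroblast-like cells had 8.05 and 6.44 CPM, under the level needed for a comparison. Aldh1a7, a close copy on the same chromosome whose transcript matches 88.8% of 2036 aligned bases, had 3 and 5 UMIs, and reads shared by the copies would be uncertain.

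Crabp2 (ENSMUSG00000004885, chr3:87948666-87953376, plus strand) codes for a cytoplasmic carrier that hands retinoic acid to its receptors. Epithelium-like cells had 493 UMIs under the label control and 130 under the label cKO, or 26.0 CPM (23.8 to 28.4) and 96.4 CPM (80.5 to 114), and the log2 ratio was 1.71. The share of cells with a UMI was 12.9% (11.2% to 14.9%) and 18.2% (11.5% to 26.7%), and these overlapped; in T or NK cell-like cells it was 1.41% and 0.881%. 1 cell held 71 of the 130 UMIs, and without the highest cell of each library the log2 ratio was 0.74, inside 2-fold. The clusters also went opposite ways, with 40.2 and 117 CPM in cluster 0 and 59.4 and 37.6 CPM in cluster 2.

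Crabp2 was also read in smooth muscle-like cells, with 3 UMIs in 313 cells and 31 in 682. The ratio of these levels was 4.64 with a counting interval from 1.45 to 23.7, and the log2 ratio with 5 CPM added was 1.27. Nearly all lay in cluster 20 (3 and 30 UMIs), which was led by Flrt1 and Tmem200a and expressed the receptor genes Pgr and Oxtr among its leading genes. That cluster gave 53.5% of the class's UMIs under the label control and 73.1% under the label cKO. Within it the ratio of the Crabp2 levels was 3.29, with a counting interval from 1.02 to 16.8. Dendritic cell-like cells had 16 and 16 Crabp2 UMIs. In lymphatic endothelium-like cells there were 2 UMIs in 22 cells and 12 in 75.

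Stra6 in epithelium-like cells had 12 UMIs in 12 of 1313 cells and 19 in 10 of 110 cells, or 0.634 CPM (0.327 to 1.11) and 14.1 CPM (8.48 to 22.0), and the log2 ratio was 1.76. Cluster 2 held 2 and 14 of them, and the ratio there was 53.5 with a counting interval from 12.3 to 485. In the class and in cluster 2 Stra6 reached 10 CPM only under the label cKO, so the filter fixed the direction. After thinning, 0.0762% and 0% of cells had a UMI, and the log2 ratio was -0.20. Rarres2 had 30 UMIs under the label control, and 0 of 1349149 under the label cKO allows up to 2.22 CPM, above the 1.58 CPM of the first, so no difference was detectable.

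The epithelium-like cells of the libraries differed in more than number. Those under the label control fell in clusters 0, 2, 7 and 8, and those under the label cKO in clusters 0 and 2, and 54.0% of the class's UMIs under the label control were from the 232 deep cells of cluster 8. All 6 epithelial markers were present in both libraries. Of the 6 fibroblast markers, 6 and 3 had a UMI, with a summed level of 41.9 and 11.9 CPM, and Pdgfra, Col1a2 and Col3a1 were at 0 under the label cKO. The 6 smooth muscle markers summed to 45.7 and 256 CPM, and their part in the result was not tested.

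**Figure D3:**
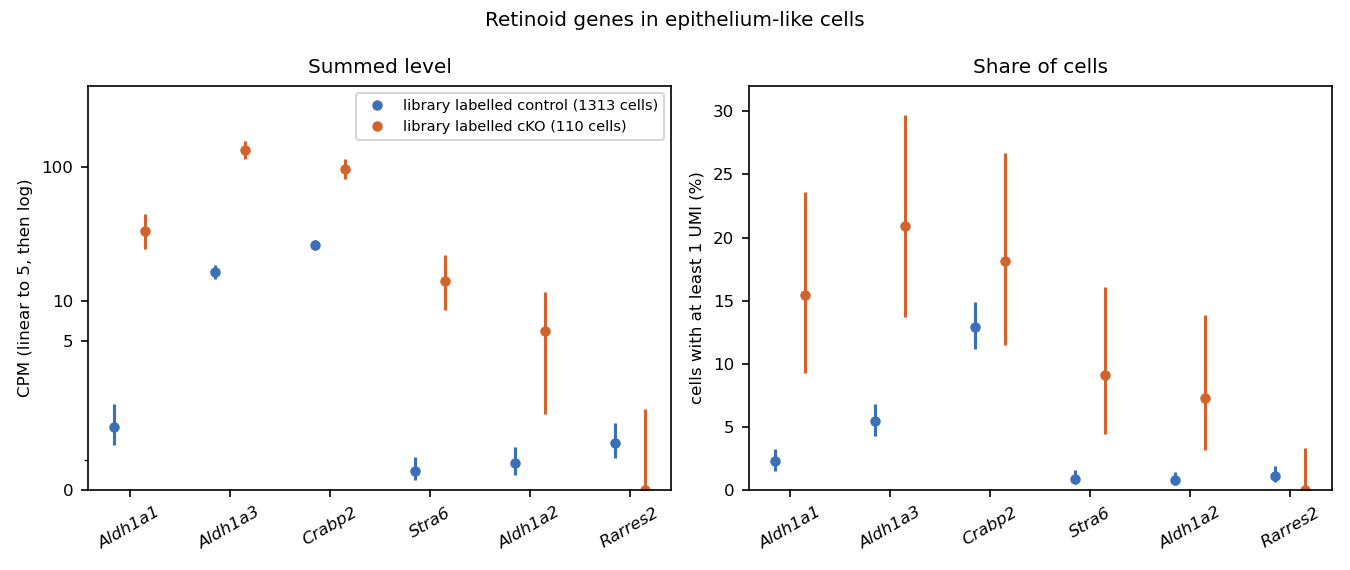
Retinoid genes in epithelium-like cells under the label control (blue, 1313 cells) and the library labelled cKO (orange, 110 cells): summed level in CPM (left, linear to 5 and logarithmic above) and share of cells with at least 1 UMI in percent (right). Bars are 95% Poisson (left) and exact binomial (right) intervals. The Aldh1a3 share is 5.48% and 20.9%, while the Crabp2 shares of 12.9% and 18.2% overlap.

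Rarres2 (ENSMUSG00000009281, chr6:48569696-48572789, minus strand) codes for chemerin, a secreted attractant of immune cells whose gene was named for its response to retinoids. It had a UMI in 21.5% and 25.2% of all cells. Fibroblast-like cells had 2624 and 2153 UMIs, or 267 CPM (257 to 278) and 130 CPM (124 to 135), with no overlap and a log2 ratio of -1.02, just past 2-fold. The share of cells with a UMI was 65.1% (61.8% to 68.3%) and 55.4% (52.7% to 58.1%), or 19.7% and 10.9% after thinning, against 1.88% and 0.661% of T or NK cell-like cells without it. The level was lower under the label cKO in 5 of 5 clusters compared and past 2-fold in 2: cluster 10 (329 and 102 CPM) and cluster 16 (349 and 149 CPM). In cluster 5 it was 246 and 154 CPM, in cluster 6 it was 268 and 153 CPM, and in the shallow cluster 13 it was 132 and 93.4 CPM with overlapping intervals. Cluster 21, too small under the label control for a comparison, had 217 and 78.5 CPM.

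Chemerin transcripts were most frequent in mesothelium-like cells, where 878 UMIs in 80 cells and 661 in 31 gave 941 CPM (880 to 1005) and 1181 CPM (1092 to 1274). Of these UMIs 5 cells held 55.0% and 64.8%. Smooth muscle-like cells had 108 and 124 UMIs, or 114 and 59.0 CPM, a log2 ratio of -0.90. The clusters of that class did not share the direction, with 203 and 92.2 CPM in cluster 11 and 37.6 and 46.9 CPM in cluster 20. Macrophage or monocyte-like cells had 70 and 20 UMIs, or 26.7 and 14.3 CPM (log2 ratio -0.72), of which 5 cells held 72.9% and 85%. That ratio changed sign in 3 of 14 alternative settings and was 0.98 with the highest Scrublet scores removed. Among T or NK cell-like cells there were 13 and 4 UMIs (log2 ratio -1.27), of which 10 came from 1 cell. The summed level of the 6 fibroblast markers was also lower under the label cKO in these 3 classes: 1129 and 709 CPM in smooth muscle-like, 889 and 492 CPM in macrophage or monocyte-like and 348 and 32.1 CPM in T or NK cell-like cells. What part fibroblast RNA has in those Rarres2 values was not tested.

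Free RNA was read from droplets of 1 to 100 UMIs, taken to hold no cell. Rarres2 was at 62.8 and 64.9 CPM in them, so the lower level in fibroblast-like cells was not found there. Aldh1a2 was at 15.1 and 64.9 CPM, higher under the label cKO as in the fibroblast-like cells. The remaining 6 genes were below 10 CPM in the droplets of both libraries.

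A wider list of 48 retinoid genes was read in the same cells. In fibroblast-like cells 20 could be compared, 3 were higher past 2-fold under the label cKO and 0 were lower, beside 1.61% and 0.859% of all genes, and the median log2 ratio was 0.06, beside 0.10 over all genes. The 3 were Cyp26b1, the enzyme that breaks down retinoic acid, at 11.5 and 64.5 CPM (log2 ratio 2.07), Tgm2, a transglutaminase known as a retinoic acid target, at 53.8 and 174 CPM (1.61), and Cmklr1, the signalling receptor of chemerin, at 16.1 and 40.4 CPM (1.11). Under the label cKO, 992 of the 1072 Cyp26b1 UMIs lay in the 221 cells of cluster 21 (220 CPM), while its 14 cells under the label control, too few for a comparison, had 0. Under the label control the 113 UMIs lay in the other clusters, with 52 in cluster 5, 29 in cluster 10 and 20 in cluster 16. The Cyp26b1 level in cluster 5 was 14.4 and 2.78 CPM, and in cluster 13 it was 5.89 and 57.1 CPM on 3 and 11 UMIs. Tgm2 was at 333 and 374 CPM in cluster 21, where no comparison is made. It was higher under the label cKO in clusters 5 (31.3 and 70.5 CPM), 6 (78.9 and 126 CPM), 13 (49.1 and 270 CPM) and 16 (25.01 and 104 CPM). In cluster 10 it was not higher, at 26.3 and 23.4 CPM.

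Of genes of other steps of the pathway, Crabp1, another carrier of retinoic acid, had 1 and 130 UMIs in fibroblast-like cells (0.102 and 7.82 CPM). It was under the level needed for a comparison and is named after its values were seen. Rdh10, the main retinol dehydrogenase of embryonic tissues, was at 140 and 131 CPM (log2 ratio -0.09), and Adh1 was at 79.3 and 65.9 CPM (-0.25). The Adh1 level was not alike in the clusters: it was 332 and 34.8 CPM in cluster 16 (239 and 28 UMIs), 108 and 168 CPM in cluster 5, and in cluster 21 it had 0 and 190 UMIs. Among receptors, Rara was at 15.7 and 24.1 CPM (0.49), Rxrb at 23.3 and 25.1 CPM (0.09) and Rxra at 14.0 and 14.4 CPM (0.03). The retinoid-responsive genes Nrip1, Meis2 and Lpl had log2 ratios of 0.60, -0.34 and -0.06.

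In epithelium-like cells 20 of the 48 could be compared, 4 were higher and 3 lower past 2-fold, beside 13.6% and 7.23% of all genes. The median log2 ratio was 0.03, beside 0.26 over all genes. Higher under the label cKO were Fabp5, a carrier that can take retinoic acid to another nuclear receptor (6.44 and 43.7 CPM), and the alcohol and retinol dehydrogenases Adh7 (0.634 and 15.6 CPM), Adh5 (10.3 and 36.3 CPM) and Rdh11 (15.4 and 37.1 CPM). Fabp5 and Adh7 reached 10 CPM only under that label, so the filter fixed their direction. Lower were Tgm2 (672 and 132 CPM), Dhrs9, an enzyme that oxidises retinol (113 and 23.0 CPM), and Ret (57.8 and 23.0 CPM). Tgm2 was thus lower in epithelium-like and higher in fibroblast-like cells. Within clusters shared by the libraries its epithelial level was 433 and 123 CPM in cluster 0 and 379 and 159 CPM in cluster 2.

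**Figure D4:**
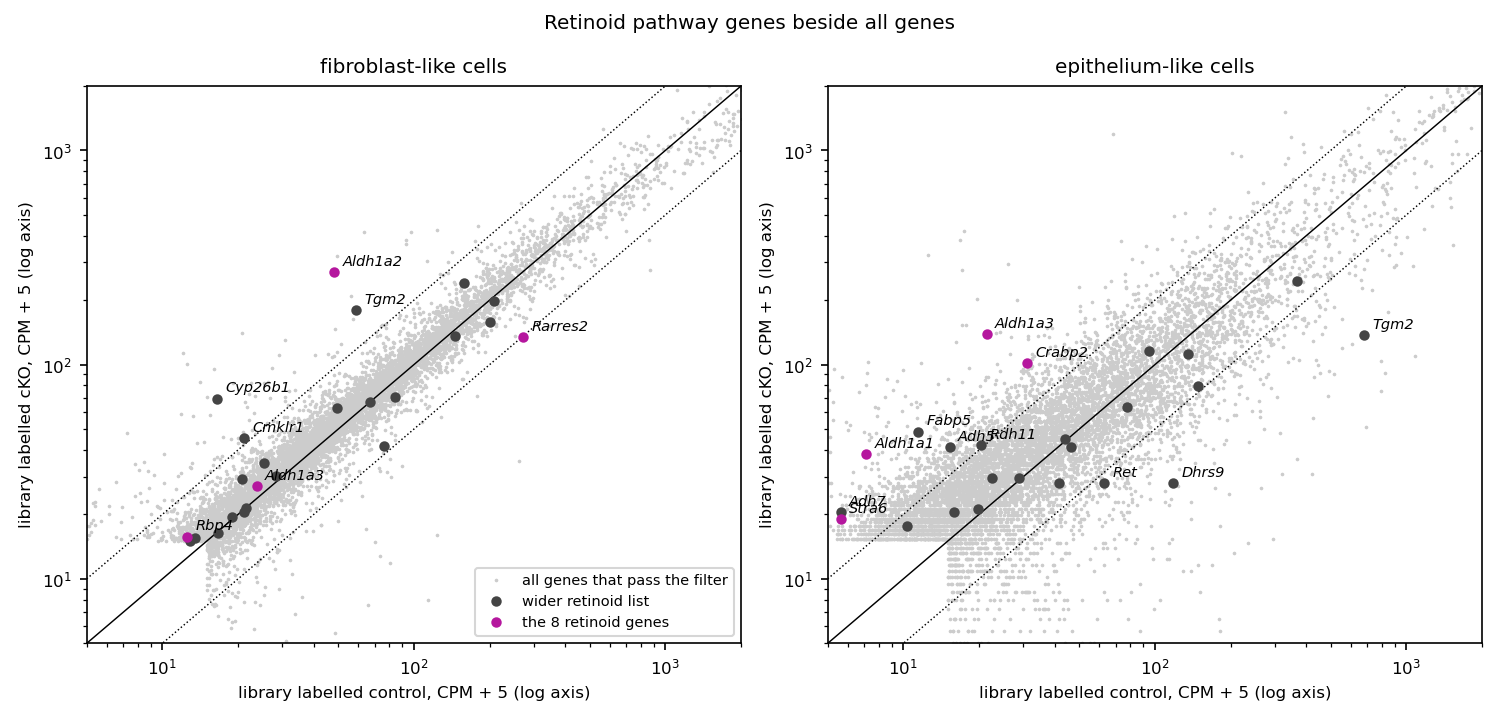
Level under the label control (x axis) against that under the label cKO (y axis), each as CPM plus 5 on a log axis, in fibroblast-like (left) and epithelium-like (right) cells. Grey points are all genes compared with levels up to 2000, dark points the wider retinoid list, magenta points the 8 genes; the solid line marks equal levels and the dotted lines 2-fold. Aldh1a2, Cyp26b1, Tgm2 and Cmklr1 lie above the upper dotted line at left, where 1.61% of genes do, and the spread of all genes is wider at right.

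For each gene the 3 others with the most similar levels across the 21 clusters of at least 50 cells were listed, among 7822 genes. The measure was Pearson's r of log2 levels with both libraries summed, and clusters share their library, depth and base composition. Aldh1a2 was closest to Map1a (r = 0.868), Col4a3 (0.839) and Gm49425 (0.824), and Stra6 to Map2 (0.921), Crtac1 (0.883) and Scube1 (0.879). Rarres2 was closest to Medag (0.954), Ccdc80 (0.953) and Bicc1 (0.953), and Rbp4 to Gpc3 (0.950), Cygb (0.939) and C1ra (0.910), all with r above 0.9. Aldh1a3 was closest to Ly6c1 (0.738), Pcolce2 (0.725) and Fst (0.703), Aldh1a1 to Ano1 (0.858), Fmo2 (0.834) and Fzd2 (0.833), and Crabp2 to Epha4 (0.811), Krt13 (0.803) and Celsr2 (0.789). The neighbours of Rarb, Ccdc141 (0.833), Tgif2 (0.822) and Synm (0.793), rest on 8 and 12 UMIs.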

How the data were processed

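The authors deposited unfiltered UMI counts per gene and barcode, with no normalization. Cell Ranger made them, version 4 per the file headers and version 6.1.1 per the submitters' processing notes, which also name mm10; the annotation release is not given in the sources used here. Of 32285 gene identifiers, 32235 (99.8%) occur in GENCODE vM21, which gave the coordinates.

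A barcode counted as a cell from 1000 UMIs and 500 genes upwards, if no more than 20% of its UMIs were mitochondrial. Scrublet's automatic threshold marked 4 of 7076 cells (0.0565%), so it did not work here and doublets remain. Both libraries were clustered together (scanpy 1.11.5, Leiden in igraph 0.11.9 at resolution 1, 2000 variable genes, 30 components, 15 neighbours), with no batch correction, since library and group are the same thing. A cluster was named "X-like" from at least 3 of a class's markers, and rebuilt names may differ from the study's own. Cluster 12, led by Il2rb, Gzma and Klrk1, held fewer and stayed unnamed, with 132 and 287 cells. Immune or stress genes such as Ptx3 and Ccl7 were among the leading genes of fibroblast-like cluster 6.

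Classes with at least 100 cells in each library were compared. Intervals at 95% are exact Poisson for levels, Clopper-Pearson for shares and exact conditional for ratios (scipy 1.17.1). The ratio script was tested on simulated counts. The floor for a count of 0 is 3 counts per library. The 8 genes are always named; of the wider list, those past 2-fold in fibroblast-like, epithelium-like or smooth muscle-like cells and the highest of each function are named. 1 gene of the wider list is not reported here. The 8 genes and all lists were chosen with earlier results of these data known. Alternatives changed the pseudocount, scaling, filters, clustering, doublets, free RNA, thinning and left-out clusters or cells.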

Additional observations from a re-analysis of the deposited data

Results flagged for a closer look

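The log2 ratio of Aldh1a2 (library labelled cKO over library labelled control) was 2.49 in fibroblast-like cells and -1.40 in macrophage or monocyte-like cells, which differ by 3.88. It drew attention because the directions are opposite, and the difference was not tested. In macrophage or monocyte-like cells the gene reached 10 CPM only under the label control, so the filter fixed that direction. Of the 46 macrophage or monocyte-like UMIs under the label control, 37 came from 1 cell. Without the highest cell of each library the macrophage or monocyte-like value was -0.39.

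In droplets without a cell, a part of the data outside the comparisons, Aldh1a2 was at 15.1 CPM (39 UMIs) and 64.9 CPM (119 UMIs), a log2 ratio of 1.80. Aldh1a1 in those droplets was at 2.33 CPM (6 UMIs) and 7.63 CPM (14 UMIs), a log2 ratio of 0.79 with 5 CPM added.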

How the results depend on the processing

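No paired analysis was possible because each group is 1 library. Over 14 ratios of the 8 genes, 204 values were recomputed. Of these, 147 stayed within the counting interval, widened where needed to hold the main value, and 55 moved out of it. The other 2 reversed the sign of a ratio past 2-fold. The sign changed for 6 values of 4 ratios; the cause was not tested. Crabp2 in epithelium-like cells was -0.60 without clusters drawn over 90% from 1 library, and Stra6 there was -0.20 after thinning. Rarres2 in macrophage or monocyte-like cells was 0.98 with the highest Scrublet scores removed, 0.33 after thinning and 0.07 with at least 2000 UMIs, and Rbp4 in fibroblast-like cells was -0.17 as a mean within clusters. Aldh1a2 in fibroblast-like cells ran from 0.44 (without clusters 13 and 21) to 2.59, past 2-fold in 14 of 16 settings, and Rarres2 from -1.12 to -0.83, past it in 11 of 16. Aldh1a1 and Aldh1a3 in epithelium-like cells were past 2-fold in 14 of 14 settings.

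The number of the 8 genes past 2-fold moved by over 1.5 times as follows. In fibroblast-like cells, those higher (1) were 3 after thinning, 2 with no filter on low counts and 0 without clusters drawn over 90% from 1 library or without clusters 13 and 21. Those lower (1) were 0 with a pseudocount of 20 CPM, after thinning, as a mean within clusters, without clusters drawn over 90% from 1 library and without clusters 13 and 21. In epithelium-like cells, those higher (4) were 2 after thinning and 2 where 10 CPM was required in both libraries. In smooth muscle-like cells, those higher (1) were 0 with a pseudocount of 20 CPM, as a mean within clusters and with 10 CPM in both libraries, and those lower (0) were 1 with median of ratios scaling and 1 after thinning. In macrophage or monocyte-like cells, those lower (1) were 2 with free RNA subtracted and 0 with a pseudocount of 20 CPM, with the highest Scrublet scores removed, after thinning, with 10 CPM in both libraries and without the highest cell of each gene. In T or NK cell-like cells, those lower (1) were 0 under those 5 settings and also at resolutions 0.5 and 2.0, with retinoid genes allowed in clustering, with at least 2000 UMIs and with free RNA subtracted. Leaving out clusters 13 or 21 or the highest cell was chosen after seeing the data. Counting error limits Rarb and Stra6 most.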

Other observations

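Dendritic cell-like cells, the immune class with the most Aldh1a2, had 18 of the 48 wider retinoid genes at 10 CPM or more in at least 1 library. Of the 18, 4 were past 2-fold, all higher under the label cKO, beside 7.6% of all genes past it in either direction. Adh1, an alcohol dehydrogenase that also oxidises retinol, had 0 and 54 UMIs. The 25.04 CPM was 14.7 times a floor of 1.70 CPM, and the counting interval of the log2 ratio began at 3.53. The others were Lpl (17.0 and 42.2 CPM), Meis1 (3.97 and 14.4 CPM) and Cd38 (3.97 and 14.8 CPM). Adh1, Meis1 and Cd38 reached 10 CPM only under the label cKO, so the filter fixed their direction. The 6 fibroblast markers summed to 150 and 449 CPM in these cells, and their part in the result was not tested. Fabp5, a fatty acid and retinoic acid carrier, was at 750 and 467 CPM.

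In macrophage or monocyte-like cells 18 of the 48 reached that level, and 2 were lower past 2-fold, beside 5.29% of all genes past it in either direction: Cyp26b1 (51 and 3 UMIs) and Meis2 (76 and 15 UMIs). Cyp26b1 reached 10 CPM only under the label control, so the filter fixed its direction. The fibroblast markers in macrophage or monocyte-like cells summed to 889 and 492 CPM.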
